A study of Drosophila melanogaster with 2 samples.

Results

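The genes described are 7 members of the Jun N-terminal kinase (JNK) pathway and of AP-1, the transcription factor at its end, among 13968 protein-coding genes annotated on the main chromosome arms. They are puc, kay, Jra, bsk, hep, msn and egr, taken by name and not by any measured value. The data are peak lists from ChIP-seq of fd59A, a forkhead transcription factor, in whole prepupae of Drosophila melanogaster. A transgenic line carried fd59A with a C-terminal eGFP tag, and its chromatin was precipitated with anti-GFP. Animals of both sexes were pooled at an age the labels give as 24 day. Biological replicates 2 and 3, both from 1 line, formed the only group, and no control sample is among them, so signal not due to the tagged protein cannot be told apart. A summit, the highest point of a peak, was given to a gene if it lay in the gene body or had that gene's transcription start site (TSS) as its nearest protein-coding TSS, at most 10 kb away. In whole animals, a high signal in few cells and a low signal in many cannot be told apart. Positions are on build dm6 with Ensembl release 115 gene models. The genes lie on 3R (puc, FBgn0243512, 8105332 to 8122294, plus strand, and kay, FBgn0001297, 29765995 to 29794113, plus), on 3L (msn, FBgn0010909, 2554847 to 2586540, minus), on X (hep, FBgn0010303, 13079205 to 13090434, minus), on 2L (bsk, FBgn0000229, 10247502 to 10250501, minus) and on 2R (egr, FBgn0033483, 10078366 to 10084210, plus, and Jra, FBgn0001291, 10096480 to 10098556, plus).

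JNK signalling is a kinase relay that answers wounding, stress and ligands of the tumour necrosis factor family. In the fly, egr is such a ligand, msn is a Ste20-type kinase upstream in the relay, hep is the kinase that phosphorylates JNK, and bsk is JNK itself. JNK phosphorylates AP-1, the pair of kay (Fos) and Jra (Jun). One of the genes that the pathway turns on is puc, whose product is a phosphatase that inactivates JNK, so that puc closes a negative feedback loop. The pathway is known for its role in epithelial closure, including the joining of the left and right thorax at metamorphosis, and for wound repair and cell death.

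Summits that the authors kept by the irreproducible discovery rate (IDR), which scores how well peaks repeat between replicates, were found at 4 of the 7 genes. They were msn with 6, puc with 4, kay with 4 and hep with 1, or 15 of 5327 listed summits. By the same rule 20.6% of all protein-coding genes had an IDR summit, and 2.53% had at least 4, as puc, kay and msn did. The kinase gene bsk, the Jun gene Jra and the ligand gene egr had none. Gene length moved with this: the 4 genes with summits are the longest (11.2 to 31.7 kb) and the 3 without the shortest (2.1 to 5.8 kb). Among all genes under 5 kb, 13.2% had an IDR summit, against 29.9% at 5 to 10 kb, 45.2% at 10 to 20 kb and 59.6% at 20 kb and over. At least 4 summits were found at 6.22% of genes of 10 to 20 kb, the range of puc, and at 23.0% of those of 20 kb and over, the range of kay and msn. The part of length in these counts was not tested, and with 1 group no test between conditions was possible.

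The windows of 101 bp centred on 6 of these summits are given here because they are the puc pair at a noncoding RNA gene, the strongest summit of kay and of msn, and the summits with a match to AP-1 or to a forkhead word. Names give the distance from the first start site of the gene, and letters run along the gene's own strand, from the RefSeq assembly of Release 6 (dm6). Capitals mark a match to one of 7 words searched on both strands.
puc +7.9 kb, chr3R:8113158-8113258, plus strand: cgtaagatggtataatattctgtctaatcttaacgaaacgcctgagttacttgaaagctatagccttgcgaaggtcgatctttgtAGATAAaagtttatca
puc +8.7 kb, chr3R:8114010-8114110, plus strand: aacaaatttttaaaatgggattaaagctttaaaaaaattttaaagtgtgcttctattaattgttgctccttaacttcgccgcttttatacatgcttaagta
kay +8.0 kb, chr3R:29773956-29774056, plus strand: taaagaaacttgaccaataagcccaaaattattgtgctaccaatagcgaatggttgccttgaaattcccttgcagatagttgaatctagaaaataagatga
kay -2.6 kb, chr3R:29763335-29763435, plus strand: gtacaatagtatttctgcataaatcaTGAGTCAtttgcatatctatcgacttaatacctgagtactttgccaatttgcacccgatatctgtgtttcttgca
msn +2.2 kb, chr3L:2584264-2584364, minus strand: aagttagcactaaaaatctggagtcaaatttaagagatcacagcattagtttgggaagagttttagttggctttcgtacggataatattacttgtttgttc
msn +3.4 kb, chr3L:2583120-2583220, minus strand: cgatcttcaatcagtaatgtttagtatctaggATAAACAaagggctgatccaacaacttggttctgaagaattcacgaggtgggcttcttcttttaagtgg
In these lines the capitals are a GATA word (AGATAA) at puc, the AP-1 word (TGANTCA) upstream of kay and the forkhead variant ATAAACA in msn. The windows at puc +8.7 kb, kay +8.0 kb and msn +2.2 kb held none of the words.

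**Figure D1:**
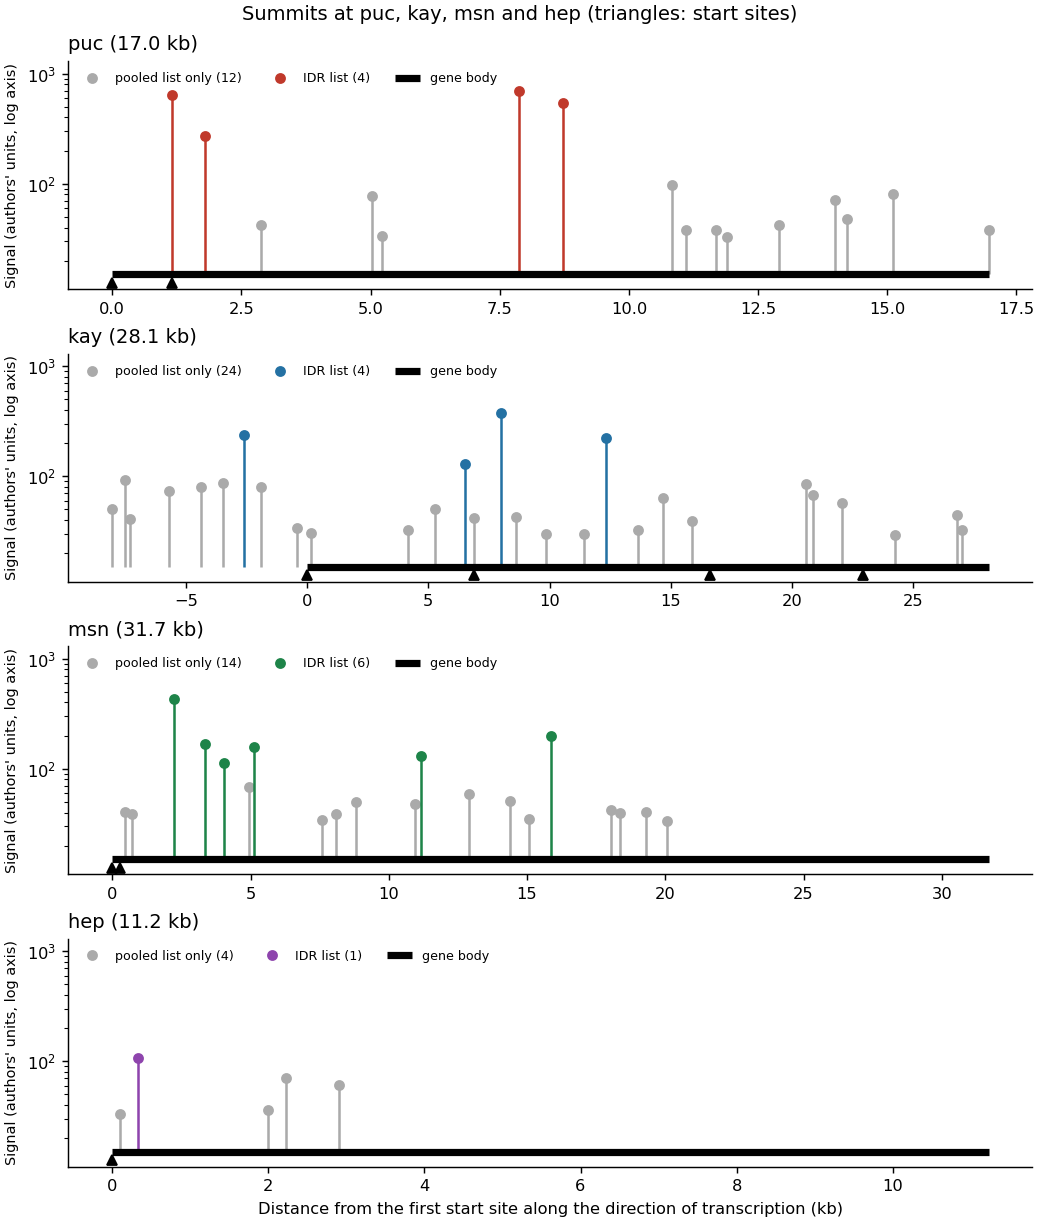
Signal in the authors' units (log axis) against distance from the first start site in kb along the direction of transcription, for each summit at puc, kay, msn and hep. Coloured points are IDR summits, grey points are summits of the pooled list alone, the bar is the gene body and triangles are start sites. The IDR summits of puc fall in 2 pairs, those of msn lie between 2.2 and 15.9 kb inside the gene, and the single one of hep lies 0.3 kb inside.

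The feedback phosphatase gene puc had the strongest summits of the set. Its 4 IDR summits spanned 7566 bp and fell in 2 pairs, 1 at the second start site and 1 deep in intron 3, the last intron. The summit of highest signal, at 8113208, had a signal of 702 in the pooled data (rank 335 of 5327), 311 in replicate 2 (rank 304 of 28127) and 403 in replicate 3 (rank 316 of 30000). Both replicates therefore placed it among their strongest peaks, at nearly the same rank. It lay 6720 bp from the nearest puc start site, inside an exon of lncRNA:CR44331 (8112699 to 8114003), a noncoding RNA gene read from the opposite strand within that intron. Its partner at 8114060 lay 57 bp upstream of the start of this RNA, at 8114003. The partner had a signal of 545 pooled (rank 560), 266 in replicate 2 (rank 454) and 289 in replicate 3 (rank 645), again close in both. Of the 4 puc summits, this pair thus lay nearer to the noncoding start than to either start site of puc.

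The other pair sat at the downstream promoter of puc. The summit at 8106494 lay 6 bp into the first exon of transcript puc-RB and in intron 1 of puc-RA. It had a pooled signal of 641 (rank 404), with 444 in replicate 2 (rank 117) and 205 in replicate 3 (rank 1177). The replicates differed here in rank by a factor of 10.1, a wider gap than at 99.9% of the 4938 IDR summits matched in both. A summit 631 bp further in, at 8107125 in intron 1 of both transcripts, differed the other way, with 88.3 in replicate 2 (rank 2537) and 212 in replicate 3 (rank 1109) for a pooled signal of 270 (rank 1722). The ratio of replicate 2 to replicate 3 signal was 2.17 at the start site and 0.416 at the neighbour, so the relative signal of these neighbours was not the same in the libraries. Because each replicate is 1 library, the spread behind either ratio is unknown. No IDR summit lay within 500 bp of the upstream start site of puc, at 8105332.

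**Figure D2:**
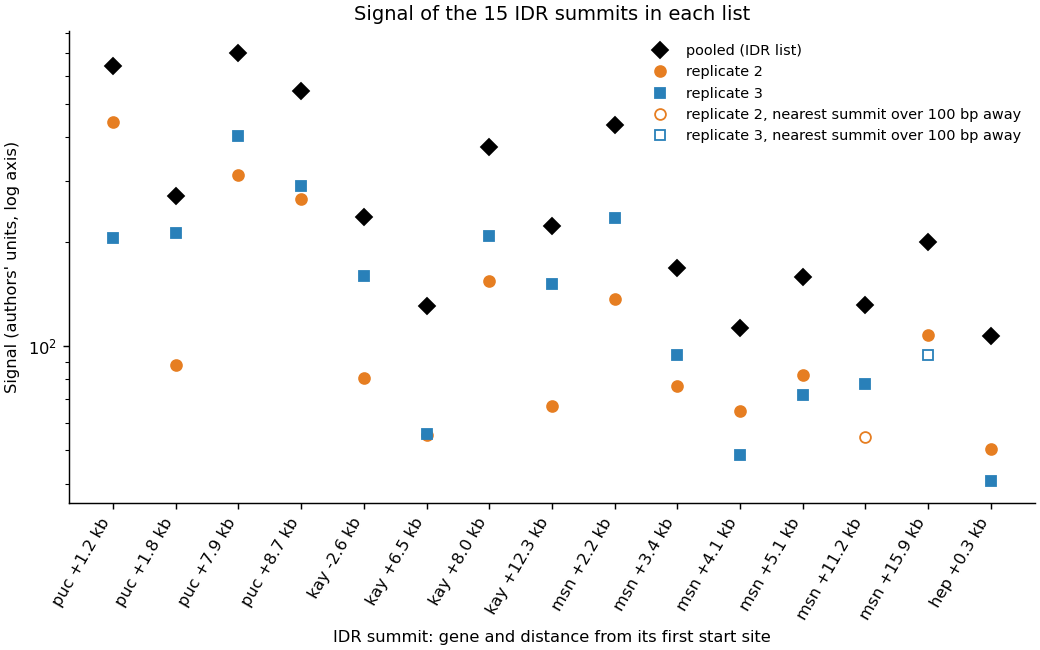
Signal in the authors' units (log axis) of each of the 15 IDR summits, ordered by gene and position. Diamonds are pooled signals, circles replicate 2 and squares replicate 3, and open symbols mark a replicate whose nearest summit was over 100 bp away. Within replicate 2 the puc +1.2 kb summit (444) is the highest of the 15, and within replicate 3 the puc +7.9 kb summit (403) is.

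Among the AP-1 genes, summits were found at the Fos gene kay and not, by IDR, at the Jun gene Jra. The strongest of the 4 at kay, at 29774006, lay in intron 1 of kay-RA, kay-RD and kay-RG, 1114 bp past a start site. It had a pooled signal of 375 (rank 1076), with 154 in replicate 2 (rank 1197) and 208 in replicate 3 (rank 1154), and both replicates had their summit at the same base. It also lay 1045 bp from the start of lncRNA:CR46110, another noncoding RNA gene inside kay. A weak summit at 29772508, 384 bp upstream of the second kay start site, had a pooled signal of 130 (rank 4223), with 55.1 in replicate 2 (rank 4536) and 55.7 in replicate 3 (rank 5812). Replicate 3 also had a stronger overlapping peak here, at 78.7 (rank 4009), with its summit 136 bp away. Replicate 2 had a slightly stronger overlapping peak too, at 56.3 (rank 4426), with its summit 351 bp away. The first start site of kay had no IDR summit within 500 bp.

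The remaining kay summits lay away from its promoters and ranked higher in replicate 3. One stood between genes at 29763385, 2610 bp upstream of the first start site, with 236 pooled (rank 2086), 80.6 in replicate 2 (rank 2850) and 159 in replicate 3 (rank 1668). Its window, printed above, holds the only AP-1 word found within 50 bp of any of the 15 summits, centred 21 bp from the summit. The other was at 29778339 in intron 1, with 222 pooled (rank 2228), 66.9 in replicate 2 (rank 3624) and 151 in replicate 3 (rank 1797). This summit had the start of fig, a gene nested in kay, as its nearest start site, 2113 bp away, and counts for kay because it lies in the gene body. In Jra, the pooled list alone held 1 summit at the promoter, 94 bp upstream of the internal start site, with a signal of 43.5 (rank 15336 of 29208). Replicate 3 had it at 44.3 (rank 7356) and replicate 2 had no summit within 100 bp, its only Jra summit being in a coding exon at 18.6 (rank 27841). The nearest IDR summit to a Jra start site was 3763 bp away, at the promoter of 14-3-3zeta.

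Of the kinase genes, msn had the most IDR summits and none at a start site. All 6 lay in introns, 4 in intron 2 and 2 in intron 3, over 13645 bp. The strongest, at 2584314 in intron 2, had a pooled signal of 434 (rank 839) and lay 1940 bp from the nearest start site. Replicate 3 had a signal of 234 (rank 924) with its summit 3 bp away. Replicate 2 had 2 overlapping peaks here, with summits 84 bp away (137, rank 1420) and 117 bp away (197, rank 776). The other 3 in intron 2 were weaker, with pooled signals of 113 to 168, and were matched in each replicate: 65.0 to 82.1 in replicate 2 and 48.5 to 94.3 in replicate 3. The window at 2583170, printed above, holds ATAAACA, centred 15 bp from the summit.

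The intron 3 summits of msn were those where a replicate missed the match. At 2570669, with a pooled signal of 199 (rank 2572), replicate 2 had 108 (rank 1958) at the same base and the nearest replicate 3 summit was 103 bp away, at 94.3 (rank 3272). At 2575378, with 131 pooled (rank 4189), replicate 3 had 77.3 (rank 4093) at a distance of 1 bp, and the nearest replicate 2 summit was 128 bp away, at 54.6 (rank 4583). Both gaps were small beside the peak width of 424 bp, so each replicate listed a region that overlaps the IDR peak. The replicate 2 summit near 2575378 was closer to a separate summit of the pooled list at 2575579 (48.1), 73 bp away. Which of the 2 it belongs to was not tested. An IDR summit also stood 882 bp from an msn start site, at a signal of 151 (rank 3575), but lay 34 bp from the start of RpL8, a ribosomal protein gene, and was not counted for msn.

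The JNK kinase gene hep had 1 IDR summit, at 13090110 in exon 1 and 324 bp past its only start site. Its signal was 107 in the pooled data (rank 5289), near the lowest of the list at 106, with 50.3 in replicate 2 (rank 5107) and 40.6 in replicate 3 (rank 8040). It is the weakest of the 15. The JNK gene bsk had no summit in the pooled list. Replicate 2 alone listed 2 at its promoters, at 47.2 (rank 5535), 177 bp past a start site, and at 20.7 (rank 22811), 75 bp past the first one. Replicate 3 listed none there, and the nearest IDR summit was 26539 bp away, at the promoter of Utx.

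The ligand gene egr had 2 pooled summits and no IDR summit. The stronger lay inside the gene at 10081859, 463 bp from the start of snoRNA:Or-CD13, with 72.5 pooled (rank 8018), 34.6 in replicate 2 (rank 8452) and 32.2 in replicate 3 (rank 10203). Both replicates listed it, and it is below the IDR list. A weaker summit 578 bp upstream of the egr start site (53.6, rank 11397) had no match in either replicate within 100 bp. The nearest IDR summit was 20009 bp away, in an intron of magu.

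Set in order of their strongest IDR summit, the genes ran puc (702), msn (434), kay (375) and hep (107). Among the 2872 genes with an IDR summit these came at places 335, 722, 876 and 2855. By the strongest summit listed at each gene, msn was above kay in both libraries, with 197 and 154 in replicate 2 and 234 and 208 in replicate 3. In replicate 2 this rests on the msn peak whose summit lies 117 bp from the IDR summit, since the one within 100 bp, at 137, is below kay. In each library puc was higher than both and hep lower than both. With 1 value per library, the spread behind the order of msn and kay is unknown. Likeness was taken by signal rank in the replicate lists, among 2426 genes with a strongest summit matched in both. Here, unlike for the 2872 genes, a summit counted only for the gene with the nearest start site, and gene bodies were not used. By this measure the gene most like puc was Hers (ranks 308 and 324, against 304 and 316). The gene most like kay was CG6044 (1223 and 1149, against 1197 and 1154) and the one most like msn was Nadk1a (1418 and 884, against 1420 and 924). For msn this uses the replicate 2 peak within 100 bp, at 137, and not the stronger one at 197 (rank 776). For hep the closest was RhoGAP71E, with 5086 and 7210 against 5107 and 8040.

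Most of the 15 summits had a match in each replicate. A summit within 100 bp in each replicate was found for 13 of them, against 92.7% of all IDR summits. Within 50 bp the match held for 10. The median ratio of the higher to the lower rank was 1.57 over these 13 and 1.31 over all matched IDR summits, with a range of 1.04 to 10.1 at the 13. All 13 were among the 5327 strongest peaks of replicate 2, as were 4337 of the 4938 matched IDR summits. In replicate 3 the counts were 10 of 13 and 4514 of 4938. Replicate 2 gave the higher rank at 8 of the 13 and at 2333 of the 4938. These counts use the nearest summit within 100 bp. Over 100 bp away, replicate 2 had a stronger peak at msn 2584314 (rank 776) and replicate 3 at kay 29772508 (rank 4009). Replicate 2 also had a slightly stronger peak at this kay summit (rank 4426 against 4536). With the peaks at ranks 776 and 4009 the replicate of higher rank would change at both summits. The kay peak at rank 4009 would be among the 5327 strongest of replicate 3. Pooled signal was 0.900 to 1.18 times the sum of the replicate signals over the 13, with a median of 0.993. Over all matched IDR summits the range was 0.385 to 3.30 and the median 1.00. The scaling of each list is unstated, so the signal ratios between lists given here depend on it, and the ranks do not.

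**Figure D3:**
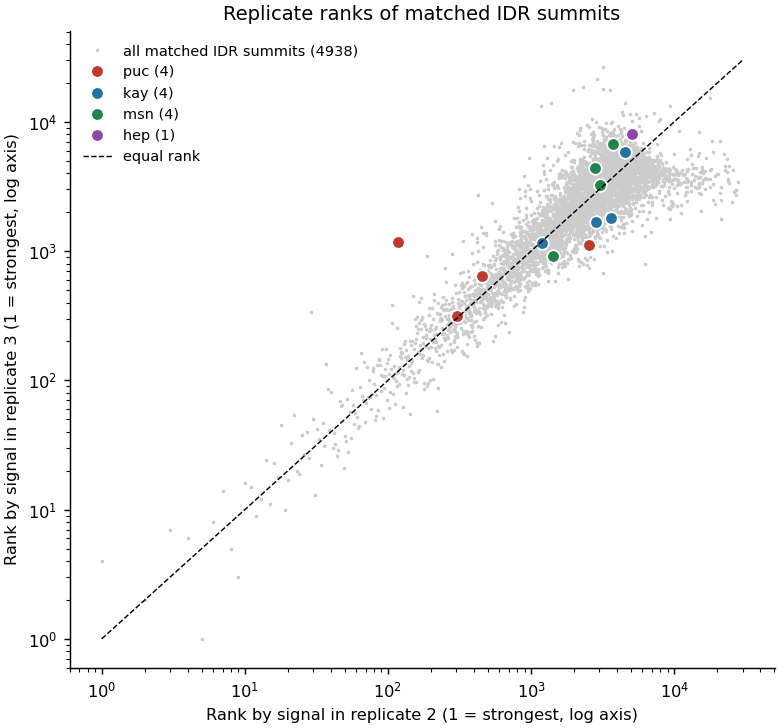
Rank by signal in replicate 3 (y axis) against rank in replicate 2 (x axis), on log axes where 1 is strongest, for the 4938 IDR summits matched in both, in grey, and for the 13 at puc, kay, msn and hep, in colour. The dashed line marks equal rank. The puc summit at ranks 117 and 1177 lies far above the line, the widest gap of the 13.

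By place, the 15 summits were made up of 9 in introns, 4 in promoters (within 500 bp of a start site of any gene), 1 in a noncoding exon and 1 between genes. Over all IDR summits introns held 45.8%, promoters 32.5%, the space between genes 19.5% and noncoding exons 1.05%. Outside promoters, none of the 15 lay in a coding exon or a UTR. Few of all IDR summits did: 0.113% in coding exons, 0.451% in 5' UTRs and 0.544% in 3' UTRs. Of the 4 promoter summits, 3 stood at start sites of the members (puc, kay and hep) and the fourth at that of lncRNA:CR44331. With a promoter width of 250 bp the promoter count was 2, and with 1000 bp it was 6, the noncoding exon count then being 0. The signals of the 15 ran from 107 to 702 with a median of 222, beside a median of 193 over the whole list, and 9 were above that median.

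Below the IDR list, the pooled list held a further 57 summits at 6 of the 7 genes, all but bsk. By the rule, 56.2% of protein-coding genes had a pooled summit. The numbers were 24 at kay, 14 at msn, 12 at puc, 4 at hep, 2 at egr and 1 at Jra. Their signals ran from 29.5 to 98.1, and the strongest, at 8116173 in the last intron of puc (rank 5795), was matched in both replicates. A match in each replicate was found for 21 of the 57 (36.8%), against 30.9% of all pooled regions outside the IDR list, and 10 had a match in neither. These weaker summits included 5 in coding exons: at 29790253 and 29792826 in kay, at 2566481 and 2567232 in msn, and at 29779655 in fig. None of the 5 was matched in both replicates, and the share of all pooled regions in coding exons is not given here. In the replicate lists, summits were present at all 7 genes in replicate 2 and at 6 in replicate 3, against 61.5% and 53.7% of protein-coding genes.

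**Figure D4:**
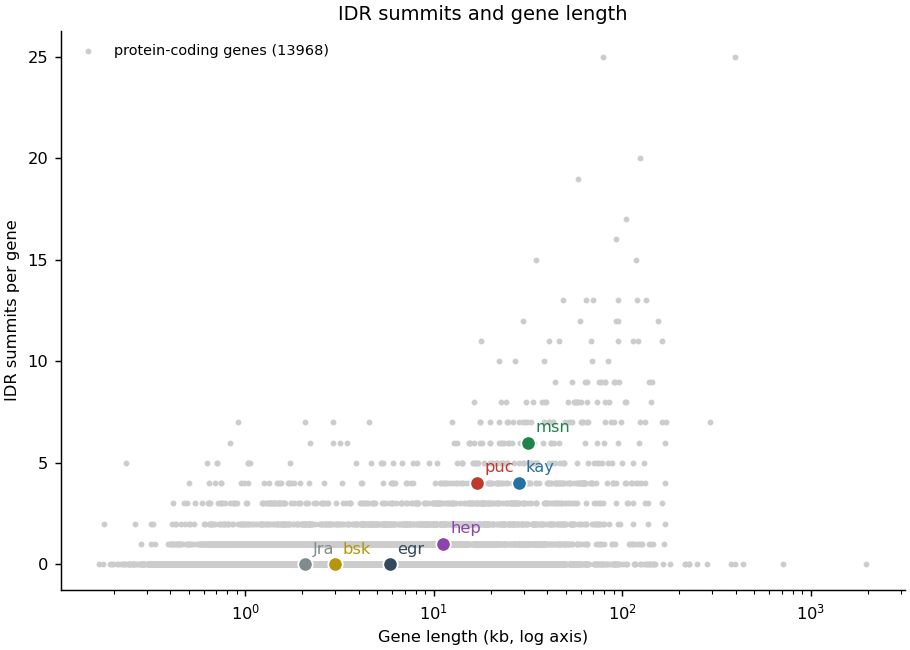
IDR summits per gene against gene length in kb (log axis) for 13968 protein-coding genes, in grey, with the 7 genes named. Jra, bsk and egr lie at 0 summits and under 6 kb, hep at 1, puc and kay at 4 and msn at 6.

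Windows at the 15 summits had low GC content, near that of the IDR list. GC content within 50 bp of the summit had a median of 34.7% (range 21.8 to 49.5), against 32.7% over all IDR summits. It was below that of windows 300 bp to either side at 13 of the 15 and at 85.3% of all IDR summits. The exceptions were puc +1.8 kb (49.5% against 36.6%) and hep (44.6% against 36.6%). Matches to the words were few. The AP-1 word was in 1 of 15 windows and in 2.29% of all IDR windows of that length. The forkhead core GTAAACA was in 0 of 15 and 2.22%, ATAAACA in 1 and 4.66%, and GACGC in 0 and 4.22%. GAGAG, the GAGA factor word, was in 1 (hep, with 2 overlapping matches) and 10.2%, the homeodomain word TAATTA in 1 (puc +1.8 kb) and 9.89%, and AGATAA in 1 (puc +7.9 kb) and 8.13%. With 100 bp to either side, the AP-1 word was also found at the downstream puc promoter, so in 2 of 15 against 4.67%, and GTAAACA was found at puc +1.8 kb, in 1 against 4.64%. At that width GACGC was in 2 against 9.84%, GAGAG in 2 against 22.6% and AGATAA in 2 against 14.5%, while ATAAACA stayed at 1 against 9.29% and TAATTA at 1 against 17.0%. A match is a description of letters and not a bound site.

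**Figure D5:**
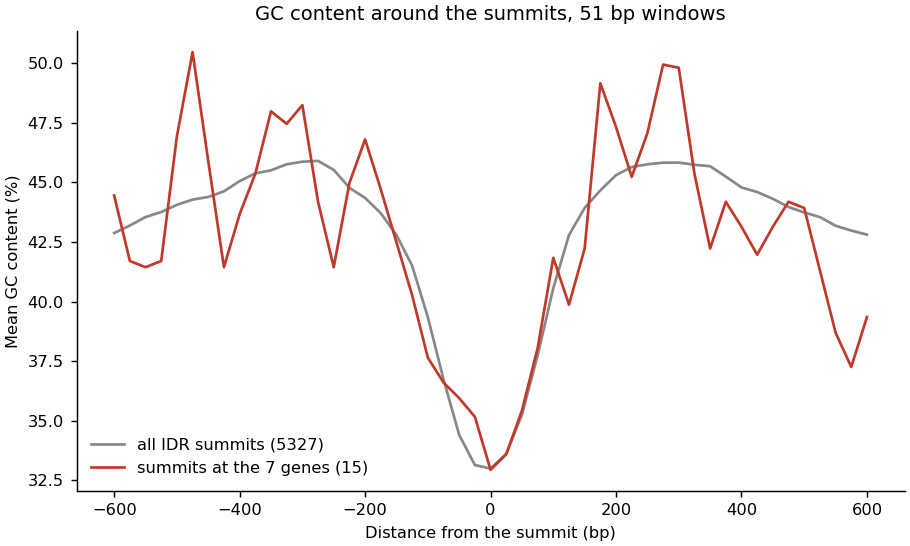
Mean GC content in % of 51 bp windows against distance from the summit in bp, for the 15 summits at the 7 genes and for all 5327 IDR summits. At the summit the line of 15 is at 32.9% and that of all IDR summits at 33.0%.

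Other genes of the pathway were described by the same rule, from a list of 41. An IDR summit was found at 20 of them, beside 20.6% of all protein-coding genes. Gene length moved with this too: 13 of the 15 listed genes of 10 kb and over had one, and 7 of the 26 shorter genes. Over all genes the shares in the length classes given above were 45.2% and 59.6% from 10 kb up, and 13.2% and 29.9% below. By role, summits were at 5 of 9 receptors and adaptors, 3 of 10 GTPases and upstream kinases, 2 of 4 partners of AP-1, 2 of 3 negative regulators and 8 of 15 reported targets. The BMP ligand gene dpp had the highest signal (1491, intron), followed by hid, a cell death gene (900, 319 bp from a start site), and POSH, a scaffold gene of the pathway (817, 109 bp). Next came raw, which restrains JNK signalling in the embryo (660, intron), and Timp, an inhibitor of matrix metalloproteinases (566). The Timp summit lay 649 bp from its start site, outside Timp and in an intron of another gene. After these came Src64B, a Src-family kinase gene with 8 summits (482 at the strongest, intron). Each of these 6 strongest summits was matched in both replicates. The other 21 listed genes had no IDR summit. In the pooled list 34 of the 41 had a summit, beside 56.2% of all protein-coding genes. These 34 include the 20 genes with an IDR summit.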

How the data were processed

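Chromatin immunoprecipitation was sequenced from 2 replicates of 1 group, after sonication to 200 to 800 bp, per the labels. The authors deposited, for build dm6, a region list for each replicate, a list from pooled alignments and an IDR list, per the deposited file descriptions. Both replicate lists and the pooled list also drew on 1 shared file that the descriptions list without saying what it is. The deposited signal (column 7) is the authors' peak signal value, whose scaling the labels and file descriptions leave unstated. The deposited −log10 q value (column 9) was at its maximum of 3.93 in 13 of the 15 summits and was not used to rank. Caller, version and IDR threshold: not given in the sources used here. Sequencing depth is unknown, because the lists hold no read counts. The replicate 3 list holds exactly 30000 regions. The 4 dm3 lists were not used here.

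Summits were placed with Ensembl release 115 models, without transposable elements, and matched between lists within 100 bp. Gene placement and matching were tested against a slow search at 300 positions. Named were all 7 members, the 6 pathway genes with the strongest summits, the gene most like each member in replicate ranks, and neighbours that hold or lie nearest to a summit. Genes, lists and words were chosen with earlier results of these data known. All values are descriptions without tests. Alternatives varied assignment, match distance, promoter width, peak number and replicate. Python 3.11.15, numpy 2.4.6 and pandas 2.3.3 were used.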

Additional observations from a re-analysis of the deposited data

How the results depend on the processing

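The 15 IDR summits and the 4 genes that hold them varied little with the assignment. With gene bodies left out there were 12 summits, with 5 kb to the nearest start site 15, with 1 kb 14, with start sites of any biotype 15 and with overlapping peaks merged, an alternative added after the data were seen, 15; the gene count was 4 wherever assignment was changed. Stricter lists held fewer: the stronger 50% of IDR peaks left 9 summits at 3 genes and 13 of the 41 pathway genes, and the 1000 strongest left 4 summits at 2 genes (3 at puc and 1 at msn) and 8 pathway genes, which follows from the smaller number of peaks. Taking as many of the strongest peaks of 1 replicate alone, the counts without replicate 2 and without replicate 3 ranged from 15 to 18 summits, 3 to 4 genes and 19 to 20 pathway genes, and hep was the gene lost without replicate 2. Matches in both replicates were 10 of 15 within 50 bp, and 15 of 15 within 200 bp or by overlap of the peaks. No paired analysis was possible because the samples form 1 group. With 2 libraries, no control sample and unknown depth, a gene without an IDR summit is not shown to be unbound.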
